A study of Homo sapiens with 12 samples.

Results

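The sirtuins are the 7 human deacylases that consume NAD+, encoded by SIRT1 to SIRT7, and all were found by gene symbol among the 58278 genes listed for each library. All 7 passed the filter on low counts that kept 24342 genes. The cells were HK2, an immortalised line derived from human kidney proximal tubule, sequenced as 12 libraries in 6 groups of 2 biological replicates. Ctrl was untreated and TN received TNF-α, an inflammatory cytokine, at 5 ng/ml for 3 h. The other groups received TNF-α at the same dose together with a short-chain fatty acid (SCFA) for 24 h, either before TNF-α (PRTN with 15 mM propionate, BUTN with 3 mM butyrate) or after it (TNPR and TNBU, with the same doses). No group received an SCFA alone, so every SCFA value below is from cells that also saw TNF-α, and in TNPR and TNBU the SCFA also lengthened the time between TNF-α and harvest, which cannot be told apart from the SCFA.

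Sirtuins remove acyl groups from lysine side chains and use up NAD+ with each group removed, so their chemistry is tied to the supply of NAD+. They form the third class of histone deacetylases and differ from the zinc-dependent classes, the ones that butyrate is known to inhibit. SIRT1, SIRT6 and SIRT7 work mainly in the nucleus, SIRT2 mainly in the cytosol, and SIRT3, SIRT4 and SIRT5 in mitochondria, which are abundant in the proximal tubule.

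Total counts ranged from 27269986 to 33851130 per library, at which 3 counts correspond to between 0.0867 and 0.112 CPM, the usual unit of counts relative to library size, scaled here for library composition as well. Over all 12 libraries, all epithelial markers examined (5 of 5) averaged at least 1 CPM, but of 12 proximal tubule markers only 5 did. LRP2, SLC34A1 and HNF4A were among those below it, and SLC22A6 had no count in any library. In Ctrl and in TN by themselves, 4 of 5 epithelial and 3 of 12 proximal tubule markers averaged at least 1 CPM. CDH1, AQP1 and ANPEP reached that average only through the SCFA libraries. The summed level of the proximal tubule markers was 184 to 228 CPM without an SCFA and 75.2 to 96.5 CPM with one, and that of 4 renal lineage markers 1270 to 1660 against 236 to 311 CPM, so both moved with the SCFA groups. The epithelial sum was 1120 to 1210 against 1730 to 2320 CPM, most of it from KRT8 and KRT18. EPCAM, in the same list, went the other way, at 55.1 to 58.1 against 13.3 to 23.2 CPM. Of the lists for other cell types, 1 of 5 leukocyte markers, 0 of 4 endothelial markers and 1 of 3 fibroblast markers averaged at least 1 CPM over all 12 libraries. In Ctrl and in TN by themselves 0 of the leukocyte markers did. The sums of these lists were also higher with an SCFA (0.782 to 1.00 against 2.28 to 4.70, 0.143 to 0.287 against 2.21 to 3.64, and 6.78 to 9.42 against 33.1 to 61.7 CPM). Most of the fibroblast sum was LUM (6.09 to 8.30 against 31.8 to 60.7 CPM), while DCN was lower with an SCFA (0.681 to 1.12 against 0.431 to 0.608 CPM). The part of these shifts in the sirtuin values was not tested. In bulk RNA, fewer cells of one kind and less transcript per cell cannot be told apart.

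In every SCFA group the same pattern was found against TN: SIRT2, SIRT4 and SIRT7 rose, SIRT1 and SIRT5 fell, and SIRT3 and SIRT6 did not pass the call of over 1.5-fold with an adjusted p under 0.05. With TNF-α alone 0 of 7 passed it. Across all genes tested, the share called higher was 23.9% for PRTN, 23.1% for BUTN, 24.9% for TNPR, 25.0% for TNBU and 25.5% for the mean of the 4 SCFA groups. The share called lower was 16.7%, 14.8%, 16.9% and 16.5% in the same order, and 18.0% for the mean of the 4 SCFA groups. In each comparison 3 of 7 members were called higher and 2 of 7 lower, counts that are to be read against these shares and set nothing apart by themselves. The CPM of the 8 SCFA libraries and of the 4 others did not overlap for 5 of 7 members, and did not for 50.9% of all genes. The 4 comparisons share the same TN libraries and are not independent of each other.

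**Figure D1:**
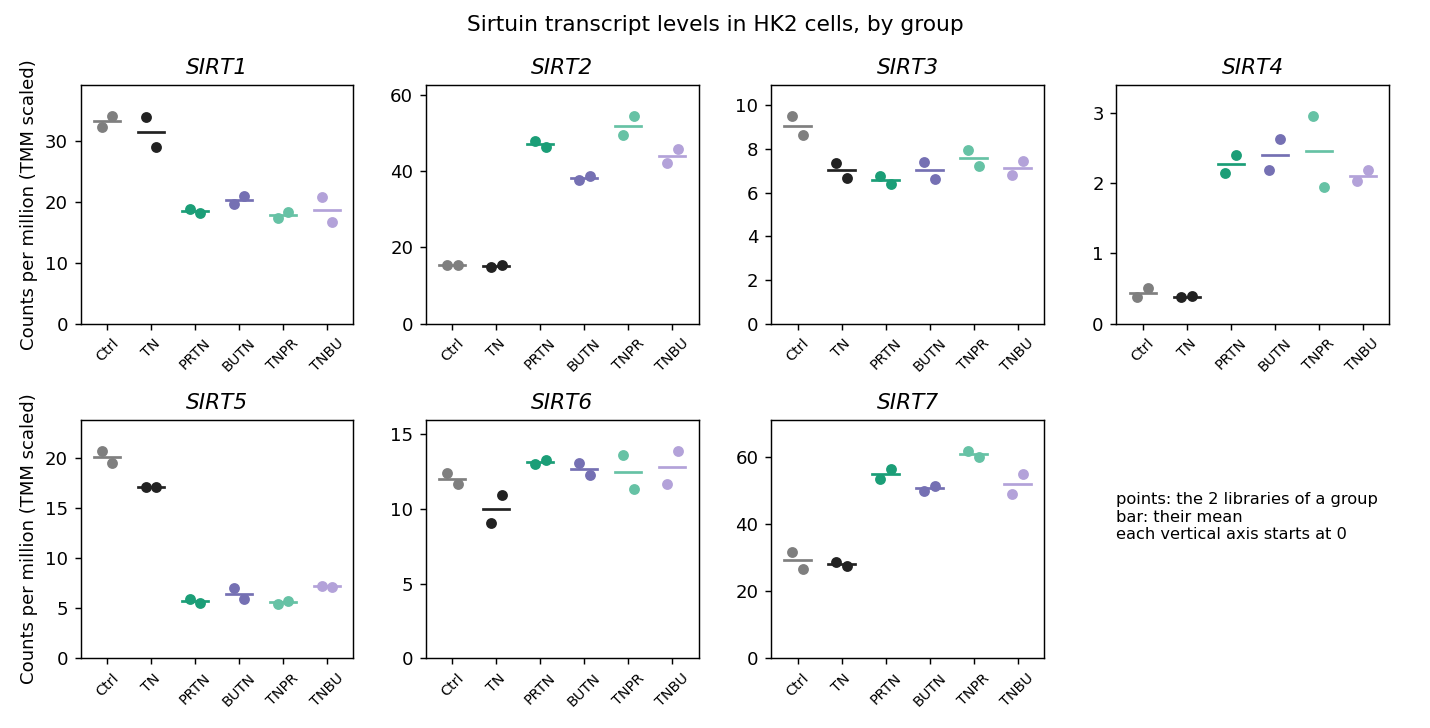
Level of each sirtuin transcript in CPM (vertical axis from 0) in the 2 libraries of each group (points) with their mean (bar). SIRT2, SIRT4 and SIRT7 sit higher in all 8 SCFA libraries than in the 4 others, SIRT1 and SIRT5 sit lower, and SIRT3 and SIRT6 show no such gap.

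TNF-α alone was compared with untreated cells first, to ask whether the inflammatory stimulus moved the family. By limma-voom, 0 of 7 members were called in either direction, where 0.764% of all genes were called higher and 0.534% lower. At an unadjusted p under 0.05 there were 2, by limma-voom and by edgeR, and 0 by DESeq2, where 17.0% of all genes passed that threshold by limma-voom. These were the mitochondrial members SIRT3, at a log2 fold change of -0.37 ± 0.12 (SE; limma-voom adjusted p = 0.121), and SIRT5, at -0.23 ± 0.08 (adjusted p = 0.177). For both genes the TN libraries lay below both Ctrl libraries. SIRT6 stood at 11.7 and 12.4 CPM in Ctrl and at 9.09 and 10.9 CPM in TN, a log2 difference of -0.27 ± 0.13 with a limma-voom adjusted p of 0.331. The difference for SIRT1 was -0.08, for SIRT2 -0.04 and for SIRT7 -0.05 on the log2 scale. For SIRT4, with 10 to 14 counts per library in Ctrl and TN, the 95% interval of the difference ran from -1.16 to 0.82, so a change of up to about that size was not detectable at this depth.

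Among the nuclear members, SIRT1, the deacetylase of FOXO factors and PGC-1α, was lower in every SCFA library. It measured 32.3 and 34.1 CPM in Ctrl and 34.0 and 28.9 CPM in TN. It measured 18.8 and 18.1 CPM with propionate first (PRTN), 19.6 and 21.0 CPM with butyrate first (BUTN), 17.3 and 18.3 CPM in TNPR, and 20.7 and 16.7 CPM in TNBU. The highest SCFA library thus stayed below the lowest library without an SCFA, and the SCFA groups overlapped one another except that BUTN lay above PRTN and TNPR. Against TN, SIRT1 fell by 0.76 on the log2 scale in PRTN (SE 0.11, adjusted p = 4.76e-05), by 0.62 in BUTN (SE 0.10, adjusted p = 0.000255), by 0.82 in TNPR (SE 0.11, adjusted p = 2.76e-05) and by 0.75 in TNBU (SE 0.11, adjusted p = 6.28e-05), all by limma-voom. The mean of the 4 SCFA groups was at 0.599 times the TN level. These changes lay close to the 1.5-fold limit. Without TN replicate 1 the BUTN value was -0.54 (adjusted p = 0.0037) and was no longer called, and with scaling to library size alone the BUTN, TNBU and mean values were -0.47, -0.56 and -0.57 and lost the call as well.

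SIRT1 lies on chr10:67884656-67918390 (GRCh38, plus strand). The 250 bases before its start, chr10:67884406-67884655, are shown because SIRT1 was the only member whose RefSeq promoter window (GRCh38.p14) held an E box, the site read by MYC and related factors. Capitals mark the E box (CACGTG) and the GC box (GGGCGG), searched on both strands.
SIRT1 promoter: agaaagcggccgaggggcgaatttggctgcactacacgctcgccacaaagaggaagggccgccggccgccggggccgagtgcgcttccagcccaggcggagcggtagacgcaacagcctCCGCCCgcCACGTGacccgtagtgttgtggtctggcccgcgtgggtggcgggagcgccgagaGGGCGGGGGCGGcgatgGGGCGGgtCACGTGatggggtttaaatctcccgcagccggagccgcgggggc
The window held 2 E boxes and 4 GC boxes. Of 35116 RefSeq windows of this length, which run from 250 bases before a gene's start to 50 after it, 7.26% held an E box and 45% a GC box. A match of letters is a description and not a binding site.

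SIRT6, which removes acyl groups from histone H3 in chromatin, stayed within a narrow range. It measured 11.7 to 12.4 CPM in Ctrl, 9.09 and 10.9 CPM in TN, and 11.3 to 13.9 CPM over the 8 SCFA libraries. All SCFA libraries were above both TN libraries, while they overlapped Ctrl. The differences from TN were 0.40, 0.35, 0.32 and 0.36 on the log2 scale in PRTN, BUTN, TNPR and TNBU, all under 1.5-fold, with limma-voom adjusted p-values of 0.0177, 0.0366, 0.05 (just under the threshold) and 0.0329. With SIRT6, 6 of 7 members had an adjusted p under 0.05 at any fold for the mean of the 4 SCFA groups, against 62.7% of all genes. For that mean the value was 0.35 ± 0.11 (SE; limma-voom adjusted p = 0.011), and over the other settings and left-out libraries its adjusted p ranged from 0.000796 to 0.231. SIRT6 (chr19:4174109-4182566, GRCh38, minus strand) starts 123 bases from ANKRD24, an ankyrin repeat gene on the opposite strand, which rose by 0.91 on the log2 scale for that mean (SE 0.20, limma-voom adjusted p = 0.00163).

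SIRT7, the nucleolar member linked to ribosomal RNA transcription and histone H3 deacetylation, was higher with an SCFA. It measured 31.8 and 26.6 CPM in Ctrl, 28.6 and 27.5 CPM in TN, 53.3 and 56.3 CPM in PRTN, 49.99 and 51.4 CPM in BUTN, 61.9 and 60.0 CPM in TNPR, and 48.9 and 55.0 CPM in TNBU. No SCFA library overlapped Ctrl or TN, and both TNPR libraries were above all others. SIRT7 rose against TN by 0.97, 0.85, 1.12 and 0.89 on the log2 scale in PRTN, BUTN, TNPR and TNBU (SE 0.09 each), with limma-voom adjusted p-values of 1.38e-06, 5.07e-06, 3.52e-07 and 3.35e-06. SIRT7 (chr17:81911939-81921323, GRCh38, minus strand) overlaps MAFG, a small MAF transcription factor gene, by 3054 bases on the same strand, so the strand of a read could not separate the genes there. MAFG went the other way, from 81.9 and 82.5 CPM in TN to between 44.8 and 56.8 CPM with an SCFA, a log2 change of -0.72 ± 0.06 for the mean of the 4 groups (limma-voom adjusted p = 1.92e-07). How the estimated counts divided reads of the shared bases was not tested.

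SIRT2, the mainly cytosolic deacetylase of tubulin, showed the most precisely measured rise in the family. It measured 15.4 and 15.5 CPM in Ctrl, 14.7 and 15.3 CPM in TN, 47.8 and 46.4 CPM in PRTN, 37.6 and 38.7 CPM in BUTN, 49.4 and 54.4 CPM in TNPR, and 42.1 and 45.9 CPM in TNBU. No SCFA library overlapped Ctrl or TN, and the 4 SCFA groups did not overlap one another. Against TN the level was 3.13 times as high in PRTN, 2.54 times in BUTN, 3.44 times in TNPR and 2.92 times in TNBU. These are log2 fold changes of 1.65, 1.34, 1.78 and 1.55 (SE 0.08 each) with limma-voom adjusted p-values of 8.75e-09, 6.38e-08, 4.33e-09 and 1.68e-08. SIRT2 (chr19:38878555-38899862, GRCh38, minus strand) starts 162 bases from NFKBIB, which encodes an inhibitor of NF-κB and lies on the opposite strand with 163 shared bases. NFKBIB was not called for the mean of the 4 SCFA groups, at 0.17 ± 0.07 on the log2 scale (limma-voom adjusted p = 0.0567).

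Among the mitochondrial members, SIRT3, the main deacetylase of that compartment, was not called in any SCFA group. It measured 9.51 and 8.63 CPM in Ctrl, 7.37 and 6.68 CPM in TN, and 6.42 to 7.95 CPM over the 8 SCFA libraries. The SCFA libraries overlapped TN in each group and lay below both Ctrl libraries. The differences from TN were -0.09, -0.00, 0.11 and 0.03 on the log2 scale in PRTN, BUTN, TNPR and TNBU, and the 95% interval of the mean of the 4 groups ran from -0.20 to 0.23 (limma-voom adjusted p = 0.929). SIRT3 lies on chr11:215030-236931 (GRCh38, minus strand), and its start is 35 bases from that of PSMD13, a proteasome subunit gene on the opposite strand. PSMD13 stood at 108.0 and 109.4 CPM in TN and 135.8 to 154.2 CPM with an SCFA, 0.40 ± 0.04 on the log2 scale and under 1.5-fold (limma-voom adjusted p = 6.06e-06). RIC8A, which shares 84 bases with the other end of SIRT3 on the opposite strand, was at -0.10 ± 0.05 (limma-voom adjusted p = 0.0725).

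SIRT4, a mitochondrial member known for ADP-ribosylation of glutamate dehydrogenase and for removing lipoyl groups, had the largest fold and the lowest counts. The 2 Ctrl libraries held 11 and 14 counts (0.378 and 0.502 CPM) and the 2 TN libraries 10 and 11 (0.372 and 0.395 CPM). With the SCFA first, PRTN libraries held 74 and 79 counts and BUTN libraries 70 and 91. With TNF-α first, TNPR libraries held 100 and 61 and TNBU libraries 58 and 66, so that the 8 SCFA libraries ran from 1.95 to 2.96 CPM. No SCFA library overlapped the others, while the 4 SCFA groups overlapped one another. SIRT4 rose against TN by 2.50, 2.59, 2.6 and 2.41 on the log2 scale (SE 0.36, 0.36, 0.36 and 0.37), with limma-voom adjusted p-values of 7.18e-05, 5.88e-05, 4.97e-05 and 0.000115 in PRTN, BUTN, TNPR and TNBU. SIRT4 lies on chr12:120302316-120313249 (GRCh38, plus strand). The mean of the 4 groups was 5.76 times TN, with a 95% interval from 1.78 to 3.27 on the log2 scale.

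SIRT5, the desuccinylase and demalonylase of mitochondrial enzymes, fell the most. It measured 20.7 and 19.5 CPM in Ctrl, 17.1 in both TN libraries, 5.89 and 5.51 CPM in PRTN, 7 and 5.90 CPM in BUTN, 5.42 and 5.76 CPM in TNPR, and 7.23 and 7.15 CPM in TNBU. The highest SCFA library, at 7.23 CPM, lay far below the lowest of the others, at 17.1 CPM. Against TN, SIRT5 fell by 1.58 (SE 0.11), 1.42 (SE 0.10), 1.61 (SE 0.11) and 1.25 (SE 0.10) on the log2 scale in PRTN, BUTN, TNPR and TNBU, with limma-voom adjusted p-values of 8.63e-08, 2.23e-07, 7.93e-08 and 5.54e-07. The mean of the 4 groups stood at 0.362 times TN. SIRT5 (chr6:13574227-13615158, GRCh38, plus strand) shares 1058 bases with a lncRNA gene on the opposite strand, which reached at most 0.761 CPM in any library. This lncRNA was at 0 CPM in both Ctrl libraries and at 0.0882 and 0 CPM in TN, less than 3 counts. It passed the filter on low counts only through its SCFA libraries, so its calls are a description and not support for a change. It was called higher in PRTN, TNPR and TNBU. The log2 changes were 3.77, 3.78 and 3.75 (limma-voom adjusted p = 0.00209, 0.00204 and 0.00227). In BUTN it was at 1.53 and not called (limma-voom adjusted p = 0.198).

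SIRT4 and SIRT5 act in the same compartment and moved in opposite directions, so their upstream sequence is shown together. All runs are 5′ to 3′ on the plus strand of GRCh38.p14, end before or between annotated exons, and carry in capitals the CRE (TGACGTCA, the site of CREB factors) or the GC box (GGGCGG). The second SIRT4 run held neither. RefSeq gives SIRT4 2 starts. The upstream stretch is chr12:120291939-120292188, and the other, which ends where the GENCODE gene begins, is chr12:120302071-120302315. The SIRT5 stretch is chr6:13574307-13574528, which lies after the first base of the GENCODE gene and outside its exons.
SIRT4 upstream start: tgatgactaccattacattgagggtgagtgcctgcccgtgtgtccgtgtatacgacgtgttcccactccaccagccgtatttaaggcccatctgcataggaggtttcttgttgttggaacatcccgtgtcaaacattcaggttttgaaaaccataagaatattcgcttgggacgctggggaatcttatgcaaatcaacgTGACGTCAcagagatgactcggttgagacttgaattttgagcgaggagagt
SIRT4 downstream start: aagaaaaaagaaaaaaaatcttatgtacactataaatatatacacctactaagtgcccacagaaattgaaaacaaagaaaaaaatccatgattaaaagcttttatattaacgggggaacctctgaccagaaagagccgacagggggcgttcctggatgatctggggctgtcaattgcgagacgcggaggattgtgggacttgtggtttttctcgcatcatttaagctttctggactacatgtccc
SIRT5 promoter: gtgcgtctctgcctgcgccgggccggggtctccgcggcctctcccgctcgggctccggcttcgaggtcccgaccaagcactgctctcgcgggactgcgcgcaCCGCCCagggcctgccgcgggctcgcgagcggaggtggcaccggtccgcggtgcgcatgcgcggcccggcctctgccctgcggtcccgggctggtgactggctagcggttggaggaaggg
The upstream SIRT4 window was the only member window with a CRE, which 1.85% of all windows held. The SIRT5 stretch held a GC box, as did windows of SIRT1, SIRT3 and SIRT6, and the CCAAT box (CCAAT) was in windows of SIRT2 and SIRT6 and in 34.6% of all windows. For the κB site of NF-κB only 2 exact sequences were searched, found in 0.191% and 0.145% of all windows. Neither was in the windows of the 6 members that RefSeq matched. Sequences this rare are missing from most windows, and other forms of the site were not searched. For SIRT7 no window was used.

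**Figure D2:**
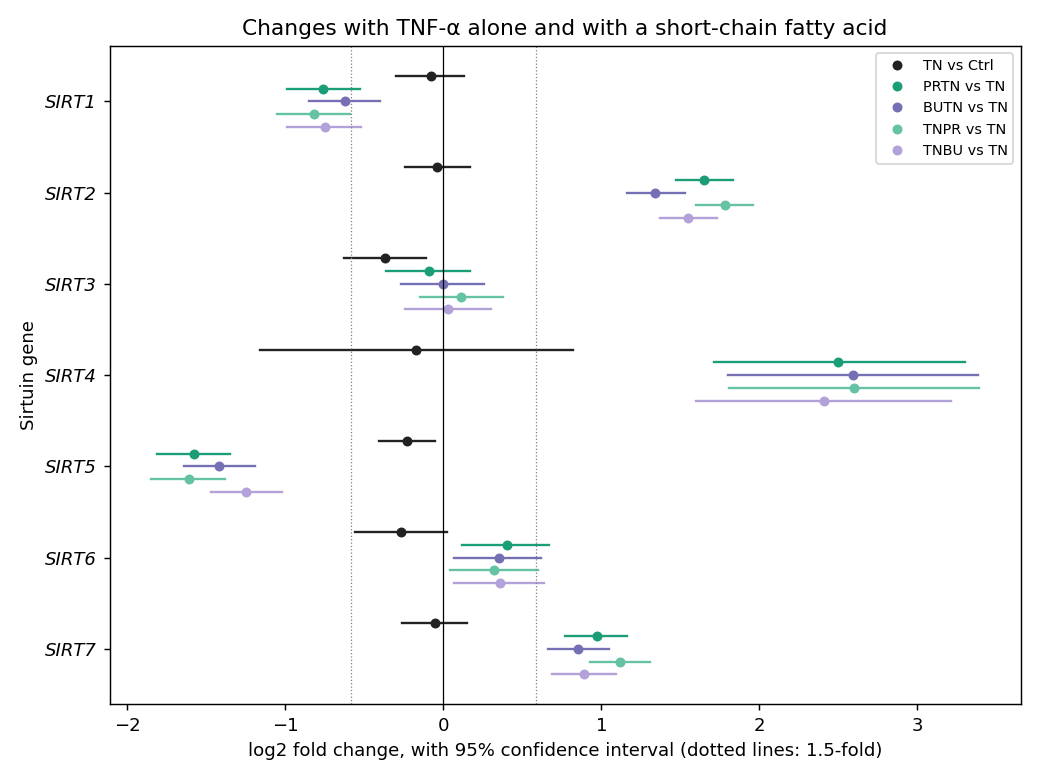
Log2 fold change of each sirtuin gene (points) with its 95% confidence interval (lines) for TN against Ctrl and each SCFA group against TN. The intervals of SIRT2, SIRT4 and SIRT7 lie right of 0 and those of SIRT1 and SIRT5 left of 0 in all 4 SCFA groups, and those of SIRT3 cross it.

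Propionate and butyrate differ by 1 carbon in the chain, and were given at unequal doses of 15 and 3 mM, so a difference between their groups cannot be told apart from dose. With the SCFA first, 0 of 7 members were called between PRTN and BUTN, at over 1.5-fold or at any fold, where 0.575% of all genes had an adjusted p under 0.05. The smallest adjusted p was that of SIRT2, 47.1 ± 1.05 CPM in PRTN and 38.1 ± 0.812 CPM in BUTN (SD, n = 2 each), a log2 difference of 0.30 with a 95% interval from 0.15 to 0.46 (limma-voom adjusted p = 0.0758). In a fit of only these 2 groups SIRT2 was the 1 member that passed at any fold. That fit called more of all genes at over 1.5-fold, 57 higher and 121 lower against 10 and 31 in the fit of all 12 libraries. Its share of all genes at any fold was not taken, so this pass sets SIRT2 apart from nothing. With TNF-α first, 0 of 7 differed between TNPR and TNBU at any fold, where 0.0205% of all genes did. SIRT2 was at 0.24 (adjusted p = 0.385), SIRT5 at -0.36 (adjusted p = 0.438) and SIRT7 at 0.23 (adjusted p = 0.476), and these 3 had an unadjusted p under 0.05 by limma-voom, with a count of 3 by edgeR and by DESeq2 as well. Of all genes 8.61% had such an unadjusted p by limma-voom. Over both comparisons the 95% intervals reached at most 0.48 to either side of the estimate, for SIRT4, the member with the fewest counts.

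The order of TNF-α and SCFA was compared within each acid. Between TNPR and PRTN 0 of 7 members passed at any fold (0.263% of all genes did), and at an unadjusted p under 0.05 there were 0 by limma-voom, edgeR and DESeq2 (11.2% of all genes by limma-voom). Between TNBU and BUTN 0 of 7 passed at any fold (0.781% of all genes did), and 1 had an unadjusted p under 0.05 by each of these tools (14.4% of all genes by limma-voom). By limma-voom it was SIRT2, at 0.20 with a 95% interval from 0.05 to 0.36 (limma-voom adjusted p = 0.217). In these 2 comparisons the largest differences were 0.21 for SIRT3 in TNPR against PRTN and 0.20 for SIRT2 in TNBU against BUTN, both on the log2 scale. Propionate groups had the higher SIRT2 mean in both orders, and the TNF-α first groups had the higher SIRT2 mean with both acids.

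**Figure D3:**
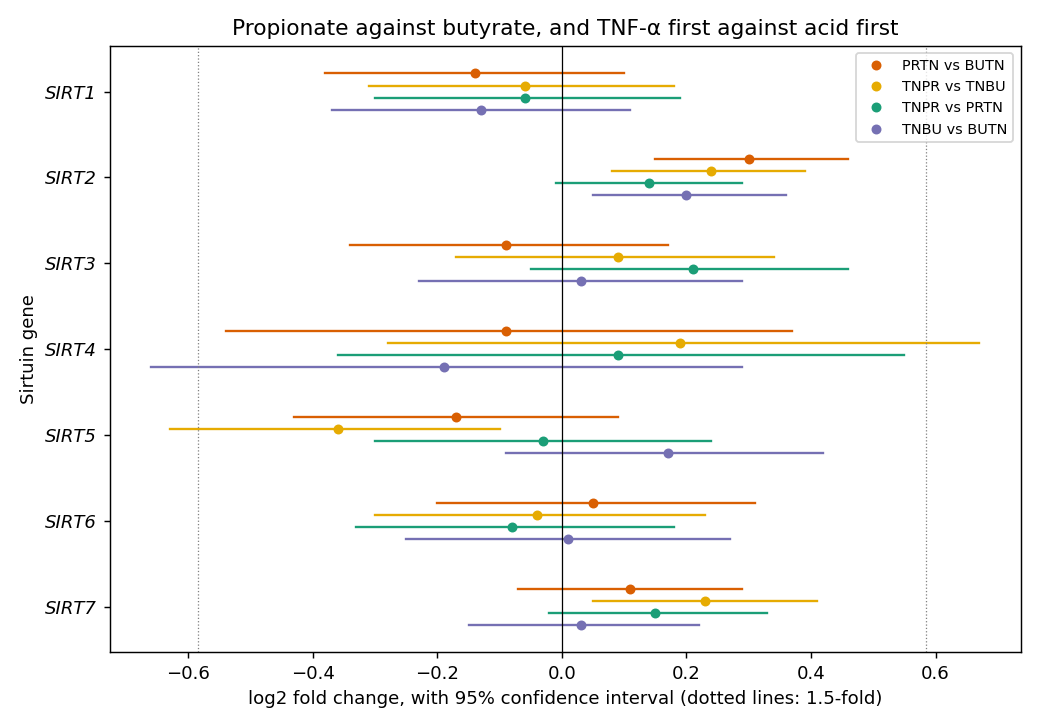
Log2 differences with 95% confidence intervals between propionate and butyrate groups and between the 2 orders of treatment. All points lie within the dotted 1.5-fold lines, and none of the 28 differences passed the adjusted threshold.

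Levels were then compared between members per kilobase of transcript, using all merged exons of GENCODE 44 as the length. Without an SCFA, SIRT1 led with 7.28 ± 0.276 CPM per kilobase in Ctrl and 6.89 ± 0.778 in TN (SD, n = 2 each), followed by SIRT7 (4.76 and 4.57) and SIRT6 (4.37 and 3.64). SIRT2 (2.48 and 2.42), SIRT5 (1.78 and 1.52) and SIRT3 (1.63 and 1.27) came next, and SIRT4 was last at 0.360 and 0.314 CPM per kilobase. In all 4 SCFA groups the order became SIRT7, SIRT2, SIRT6, SIRT1, SIRT4, SIRT3 and SIRT5. SIRT7 then stood at 8.27 to 9.94, SIRT2 at 6.15 to 8.36 and SIRT5 at 0.495 to 0.637 CPM per kilobase over the group means. Neighbours in this order overlapped within their spread in several groups. In Ctrl these were SIRT7 (4.76 ± 0.607) and SIRT6 (4.37 ± 0.191), and SIRT5 (1.78 ± 0.0775) and SIRT3 (1.63 ± 0.112), and in TNPR SIRT4 (2.01 ± 0.585) and SIRT3 (1.37 ± 0.0926). SIRT6 and SIRT1 were neighbours within their spread in BUTN (4.62 ± 0.197 and 4.46 ± 0.215), TNPR (4.54 ± 0.592 and 3.90 ± 0.159) and TNBU (4.66 ± 0.567 and 4.10 ± 0.627). With the longest transcript as the length, SIRT7 (8.48) and SIRT1 (8.08) changed places in Ctrl, and SIRT7 (8.14) and SIRT1 (7.66) in TN, as did SIRT5 (3.27) and SIRT2 (3.26) in Ctrl and SIRT3 and SIRT4 in the SCFA groups, while SIRT4 stayed last without an SCFA and SIRT5 last with one. The 7 transcripts summed to 106.8 to 122.5 CPM in the 4 libraries without an SCFA and 136.9 to 158.9 CPM in the 8 with one.

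**Figure D4:**
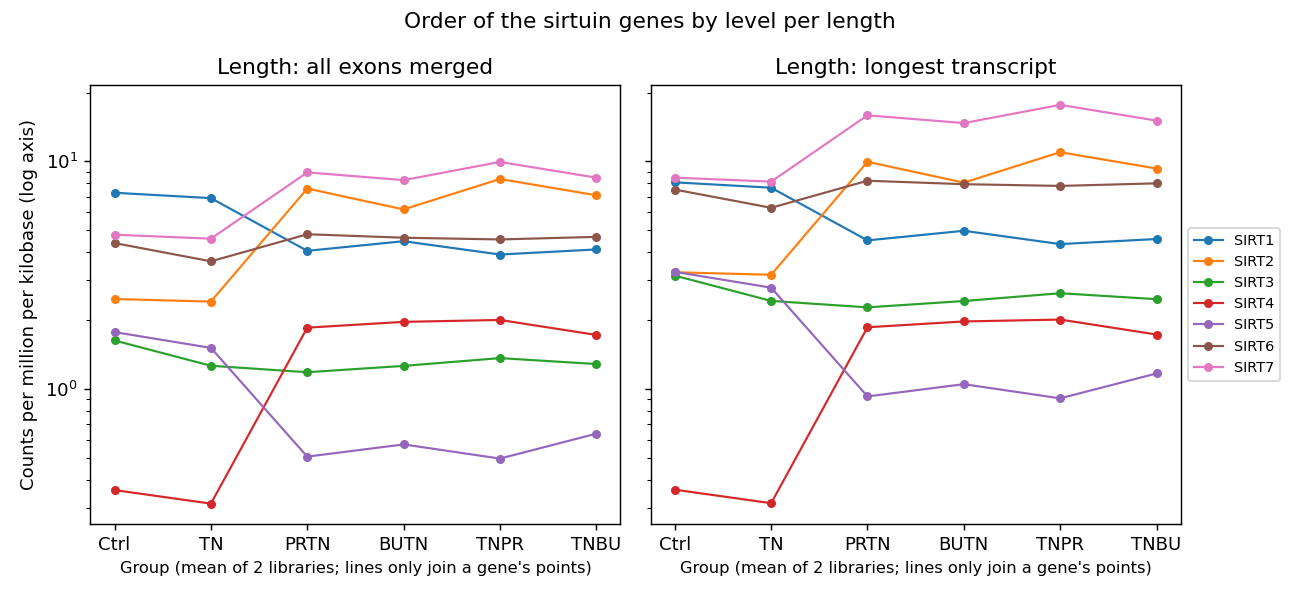
Mean level of each sirtuin gene in CPM per kilobase (log axis) in each group, with length taken from merged exons (left) or the longest transcript (right). SIRT2 crosses above SIRT1, and SIRT4 above SIRT5, between the groups without and with an SCFA under both lengths.

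Genes around NAD+, the cofactor of all 7, were examined next. Some of them, such as NNMT, NADK and SLC25A51, do not make it, so the counts below are not a measure of its synthesis. Of 12 genes tested in the list of NAD+ synthesis and salvage, none was called in TN against Ctrl. There 2 had an adjusted p under 0.05 at any fold (3.51% of all genes). For the mean of the 4 SCFA groups against TN 3 rose and 4 fell, NNMT among the latter (25.5% and 18.0% of all genes). The median log2 change was -0.32 beside 0.09 for all genes. The 3 with the smallest adjusted p all fell. NNMT, which methylates nicotinamide and so removes it from salvage, went from 116 and 120 CPM in TN to between 17.9 and 37.5 CPM with an SCFA, at -2.18 ± 0.10 on the log2 scale (limma-voom adjusted p = 2.38e-09). QPRT, the enzyme that takes quinolinate from tryptophan breakdown into NAD+, stood at 161 and 176 CPM in TN and 78.2 to 107 CPM with an SCFA, and NADSYN1, the NAD+ synthetase, at 57.3 and 64.3 against 28.0 to 40.6 CPM. Their log2 changes were -0.90 ± 0.06 and -0.85 ± 0.06. Of genes named here after their values were seen, NMNAT1 of the nucleus fell by 1.07. NMNAT2 of the cytosol (from 0.330 to 3.76 CPM on average), NMRK1 (0.88 to 1.75) and NMRK2 (0.0552 to 0.447) rose. The 3 that rose were thus all below 1 CPM in TN, NMRK2 below the level of 3 counts, while the 4 that fell stood at 15.2 to 169 CPM in TN. NAMPT, the rate-limiting enzyme of salvage and named on the same terms, rose with TNF-α alone from 314 to 406 CPM on average. That was 0.37 ± 0.06 on the log2 scale (limma-voom adjusted p = 0.0046). The mean of the 4 SCFA groups, at 276 CPM, was at -0.56 ± 0.05 against TN, just inside 1.5-fold (limma-voom adjusted p = 3.49e-07). It passed 1.5-fold with filterByExpr (-0.59) and without several single libraries, such as TN replicate 2 (-0.62). In the single groups NAMPT fell by 0.70 in PRTN and by 0.59 in TNPR, and was at -0.49 in BUTN and -0.46 in TNBU, within 1.5-fold. Both calls were lost with library size alone (-0.55 and -0.41), and that in TNPR also without TN replicate 1 (-0.58) or TNPR replicate 1 (-0.57). It did not differ between the acids past the adjusted threshold (limma-voom adjusted p = 0.132 for PRTN against BUTN and 0.577 for TNPR against TNBU).

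The sirtuins share NAD+ with other enzymes. Of 8 such genes tested, none was called in TN against Ctrl, 1 rose and 1 fell for the mean of the 4 SCFA groups (25.5% and 18.0% of all genes), and 3 had an adjusted p under 0.05 at any fold (62.7% of all genes). PARP3, a DNA repair ADP-ribosyltransferase, fell from 26.1 and 27.2 CPM in TN to between 7.96 and 12.1 CPM, by 1.41 on the log2 scale (SE 0.08, limma-voom adjusted p = 8.05e-09). PARP2, at -0.15 ± 0.05, and the tankyrase gene TNKS, at 0.13 ± 0.08, were not called. SARM1, an NAD+ hydrolase best known from axons and named here after its values were seen, rose by 1.16 from 0.391 CPM, a call that was lost without TN replicate 2 and with DESeq2. Of 6 genes that regulate SIRT1, none rose and 1 fell for the mean of the 4 SCFA groups (25.5% and 18.0% of all genes). The gene that fell was SENP1, a protease that removes SUMO, from 38.9 and 37.5 CPM in TN to 21.9 to 26.2 CPM with an SCFA (-0.66 ± 0.05, limma-voom adjusted p = 1.71e-07), and not called with library size alone. The corepressor gene CTBP1 was at -0.54 ± 0.05 and the cell cycle factor E2F1 at 0.58 ± 0.06 on the log2 scale, both within 1.5-fold. In the single groups 1 of the 6 rose in PRTN and in BUTN (23.9% and 23.1% of all genes). In TNPR and in TNBU 2 rose (24.9% and 25.0% of all genes). The genes that rose were E2F1, by 0.59 in PRTN, 0.79 in TNPR and 0.61 in TNBU, and HIC1, a transcriptional repressor of SIRT1. HIC1 rose by 0.77 in BUTN, 0.63 in TNPR and 0.59 in TNBU. HIC1 is named after its values were seen. Its calls in BUTN, TNPR and TNBU were lost without TN replicate 1 (limma-voom adjusted p = 0.0608, 0.119 and 0.134), without TN replicate 2 (0.0704, 0.137 and 0.153) and by DESeq2 (adjusted p = 0.0748, 0.16 and 0.17), and in TNPR and TNBU under most other left-out libraries as well. The E2F1 calls in PRTN and TNBU were close to 1.5-fold and were lost without TN replicate 1 (0.52 and 0.55) and under most other left-out libraries, while that in TNPR was kept without each library. For the mean of the 4 SCFA groups HIC1 was at 0.57 ± 0.20 (limma-voom adjusted p = 0.0238), within 1.5-fold. In PRTN 2 of the 6 fell, SENP1 and CTBP1 (16.7% of all genes were called lower). In the other groups 1 each fell, CTBP1 in BUTN (14.8% of all genes) and SENP1 in TNPR and TNBU (16.9% and 16.5% of all genes). These counts set nothing apart by themselves. CTBP1 lost its calls in PRTN and BUTN with library size alone (-0.43 and -0.45), and was within 1.5-fold without TN replicate 2 (-0.55 and -0.57). Its call in PRTN was also lost with relative log expression factors and with DESeq2 (-0.58 each). In TNPR CTBP1 passed 1.5-fold without TN replicate 1 (-0.62) or TNPR replicate 2 (-0.59). SENP1 lost its calls with library size alone. For the mean of the 4 SCFA groups CTBP1 was at -0.63 without TN replicate 1, and E2F1 at 0.60 without TN replicate 2, both past 1.5-fold.

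The transcripts of proteins that sirtuins deacylate were counted by compartment. Of 16 nuclear and cytosolic substrates tested, 5 rose and 5 fell for the mean of the 4 SCFA groups (25.5% and 18.0% of all genes), and 0 were called in TN against Ctrl. NBN, a component of the MRN complex that senses DNA breaks, went from 219 and 201 CPM in TN to 53.3 to 73.0 CPM with an SCFA (-1.75 ± 0.06, limma-voom adjusted p = 1.55e-10). The acetyltransferase gene KAT5 went from 38.1 and 38.2 to between 16.4 and 18.8 CPM (-1.12 ± 0.05), and STAT3, a transcription factor of cytokine signalling, from 98.3 and 104 up to 189 to 220 CPM (1.00 ± 0.05). Among the others called, named after their values were seen, were PPARGC1A and SUV39H1, which fell, and FOXO1, FOXO4, ACSS2 and PCK1, which rose. PCK1 was at 0 CPM in TN and in Ctrl, and passed the filter on low counts only through its SCFA libraries. RELA, the NF-κB subunit that SIRT1 deacetylates and also named after its values were seen, was at -0.04 ± 0.05 on the log2 scale.

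Of 15 mitochondrial substrates 13 passed the filter on low counts and were tested. None rose and 6 fell for the mean of the 4 SCFA groups, where 25.5% of all genes were called higher and 18.0% lower, with a median log2 change of -0.50 beside 0.09 for all genes. SOD2, the manganese superoxide dismutase that SIRT3 activates, was the 1 gene of the 5 lists called in TN against Ctrl, from 1313 and 1327 CPM to 3292 and 3282 CPM (1.32 ± 0.06, limma-voom adjusted p = 6.46e-07). With an SCFA it stood at 584 to 804 CPM, below Ctrl as well as TN, and the change from TN was -2.27 ± 0.05 on the log2 scale (limma-voom adjusted p = 9.24e-12). PPIF, the cyclophilin of the permeability pore, went from 307 and 318 CPM in TN to 122 to 139 CPM (-1.25 ± 0.04), and MCCC2, a subunit of the leucine-degrading carboxylase whose complex SIRT4 acts on, from 84.5 and 82.6 to 34.7 to 40.9 CPM (-1.11 ± 0.06). The other 3, named after their values were seen, were CPS1, the urea cycle enzyme that SIRT5 acts on, ACSS1 and LONP1.

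**Figure D5:**
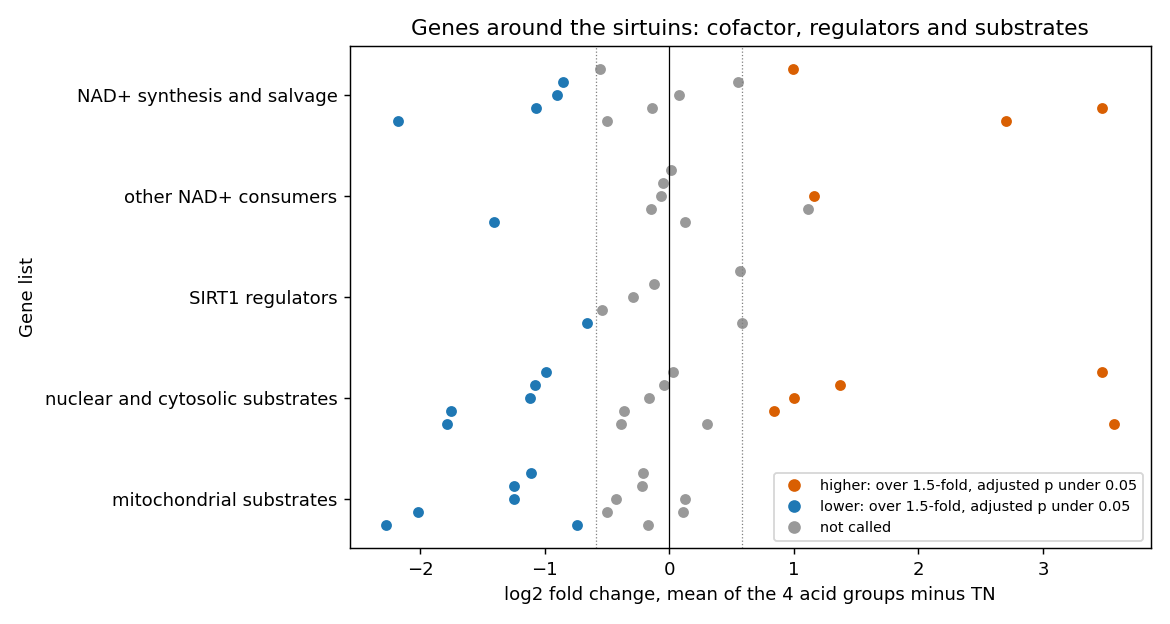
Log2 fold change of every tested gene of the 5 lists for the mean of the 4 SCFA groups against TN, one point per gene, spread vertically for legibility. Genes called higher and lower stand on both sides in the NAD+ synthesis and nuclear and cytosolic substrate lists, and in the mitochondrial substrate list 6 of 13 points are called lower and none higher.

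Last, the genes whose levels were most like those of each member were taken from 12320 protein-coding genes by Pearson's r of log2 CPM over the 12 libraries. Since the libraries formed separate sets with and without an SCFA for 5 of the 7 members, as for 50.9% of all genes, r for these describes mostly that step and is given without a p. For SIRT1 the nearest were LSM14A, CKAP5 and TMEM19 (r of 0.991 to 0.996), for SIRT2 USB1, TPMT and the carboxypeptidase M gene (0.998 each, rounded), and for SIRT7 GTPBP3, SLC1A3 and POLG2 (0.992 each). For SIRT4 they were SPATA33, MDGA1 and FCHO1 (0.992 to 0.994) and for SIRT5 CNPPD1, SPR and MAPK13 (0.993 to 0.995). SIRT3, with BTD, YJEFN3 and YPEL1 (0.895 to 0.909), and SIRT6, with SLC12A9, ULK1 and GTF3C5 (0.910 to 0.925), had no gene as close.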

How the data were processed

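RNA of HK2 cells was sequenced as stranded mRNA libraries (TruSeq). The authors aligned reads with STAR 2.6.1a to GRCh38 and estimated the deposited expected counts per gene with RSEM on GENCODE 26 (RSEM version and strand setting not given in the sources used here, read quality by FastQC 0.11.5). A general treatment text in the labels names other agents, and groups follow the titles and design text. Unrounded counts were fitted with limma-voom (limma 3.58.1, edgeR 4.0.16, R 4.3.3) over all 12 libraries with TMM scaling, keeping genes with a geometric mean of count plus 1, minus 1, of at least 1, with 1 mean per group and Benjamini-Hochberg adjustment over 24342 genes. A call needed over 1.5-fold and an adjusted p under 0.05. edgeR and DESeq2 1.42.0 were run on rounded counts as alternatives, and the fits were tested on simulated data. Positions and exon lengths came from GENCODE 44 (GRCh38), matched by gene ID without its version, and promoters from RefSeq (GRCh38.p14). The 7 members and the gene lists were chosen with earlier results of these data known. Named list genes were the 3 per list with at least 1 CPM and the smallest adjusted p for the mean of the SCFA groups, neighbours were genes that overlap a member or start within 1000 bases, and correlations used log2(CPM + 0.05). Protein sequences were not analysed here, and some list genes are not reported by name. Counting intervals cover counting error only.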

Additional observations from a re-analysis of the deposited data

How the results depend on the processing

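The rises of SIRT2, SIRT4 and SIRT7 and the fall of SIRT5 against TN kept direction and call in all 4 SCFA groups under other scalings, filters and tools, with only the compared groups in the fit, with a replicate block and with each library left out. Members called lower numbered 2 in each of these comparisons and were reduced to 1 at over 2-fold in all (SIRT1 was lost, as was SIRT7 except in TNPR), with library size alone in BUTN, TNBU and the mean, and to between 1 and 2 when a library was left out for BUTN. Library size alone moved the median of all genes by 0.153 to 0.196 (log2) in the SCFA groups against TN, and the share of calls that were higher for the mean from 58.6 to 69.6%. Of the lists, at any fold the mitochondrial genes that fell numbered 10 of 13 and the other NAD+ consumers 2 of 8. Of 6 SIRT1 regulators 3 were lower and 2 higher. At any fold 62.7% of all genes passed in either direction, so these counts set nothing apart by themselves. At over 2-fold genes of the NAD+ synthesis list that fell numbered 2 and regulators that fell 0. Library size alone gave 0 regulators lower and 2 higher, relative log expression factors, edgeR and DESeq2 each 1 higher, and DESeq2 0 consumers higher. Left-out libraries gave 1 to 2 regulators lower, 0 to 1 higher, and 0 to 1 consumers higher.

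Uncalled values near 0 changed sign. Library size alone put SIRT3 at 0.15 in BUTN and 0.06 in PRTN, and PARP2 at 0.02. SIRT3 in BUTN was at 0.01 with relative log expression factors, 0.01 with the strict filter and 0.02 with DESeq2, and for the mean at -0.01 without a filter and -0.02 with filterByExpr. Left-out libraries ranged across 0 for SIRT3 (BUTN -0.11 to 0.07, TNBU -0.06 to 0.08, mean -0.09 to 0.06), for SIRT1, SIRT4 and SIRT7 in TN against Ctrl (-0.20 to 0.03, -0.37 to 0.03, -0.18 to 0.08), SIRT4 and SIRT6 in PRTN against BUTN (-0.22 to 0.03, -0.01 to 0.08), SIRT1, SIRT3, SIRT6 and SIRT7 in TNBU against BUTN (-0.30 to 0.02, -0.07 to 0.11, -0.12 to 0.12, -0.06 to 0.10), SIRT4, SIRT5 and SIRT6 in TNPR against PRTN (-0.22 to 0.36, -0.10 to 0.01, -0.22 to 0.03) and SIRT1, SIRT4 and SIRT6 in TNPR against TNBU (-0.25 to 0.07, -0.13 to 0.46, -0.19 to 0.07). The causes were not tested.

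Replicate numbers were not used to pair the samples in the main fit. Deviations of same-numbered libraries correlated between -0.0429 and 0.0989 over 15 pairs of groups. They were taken over all kept genes, where counting error at low counts weakens a correlation, so pairing was not excluded. With the replicate block the members called higher and lower against TN stayed 3 and 2, and members past an adjusted p of 0.05 at any fold numbered 5 instead of 6 in TNPR. All genes called between TNPR and PRTN went from 13 higher and 26 lower to 12 and 16. TNPR and TNBU replicates differed most (chi-square per gene 15.2 and 18.1, against 3.17 to 6.61 elsewhere). Depth limited SIRT4 most, with 10 to 14 counts per library without an SCFA and a 95% interval of up to 0.99 (log2) to either side of its change with TNF-α.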
